A study of Mus musculus with 20 samples.

Results

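Potassium channel genes were followed across 2 brain regions, 2 genotypes and 5 time points around conditioned fear (CF) learning. The genes were all those whose symbol starts with Kcn and that the array annotation pairs with a transcript cluster by that symbol alone, without Kcne2 and Kcnj13. Transcript clusters are the probe groups of the Affymetrix Mouse Gene 1.0 ST array, each of which reports a gene or a part of one. The rule gave 93 transcript clusters of 90 genes, out of 28853 transcript clusters on the array, of which 21789 carry 1 symbol and stand for 19938 genes. Kcna2, Kcnma1 and Kcnh8 are covered by 2 transcript clusters each. Kcnd3os, Kcnmb4os1 and Kcnmb4os2 are RNAs that encode no channel protein.

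Each of the 20 arrays held RNA pooled from 5 to 10 male mice, labelled as 2 mo old C57BL/6, and no combination of region, time and genotype had more than 1 array. WT mice were C57BL/6 animals that were not littermates of the mutants. DKO mice lack Adcy1 and Adcy8, the adenylyl cyclases stimulated by Ca2+, in all tissues and from birth. The DKO mice came from the matings that gave AC8 rescue mice, and carried tetop-AC8 alone, CaMKII-tTA alone or neither transgene. These matings were fed doxycycline and the DKO mice stayed on it up to weaning, so that early doxycycline and genotype cannot be told apart. Bilateral micropunches of the amygdala and the hippocampus were taken from untrained mice (baseline) and from mice killed 0 hr, 1 hr, 48 hr or 1 wk after a single training trial with a foot shock. Mice of the 1 wk group had also gone through a testing trial. Time points of a region and genotype served as replicates, so that p-values measure the spread between these pools, and the sources do not state whether both regions of a pool came from the same mice. In tissue of mixed cells, fewer cells of a type and less RNA per cell cannot be told apart.

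Levels are the authors' RMA values on a log2 scale, and the array medians lay between 6.64 and 6.83. Adcy8 ranged from 5.22 to 5.89 on the DKO arrays and from 6.94 to 7.66 on the WT arrays. Adcy1 stood closer in the amygdala, at 7.51 to 7.77 in DKO and 7.97 to 8.38 in WT. In the hippocampus Adcy1 was 7.67 to 7.80 in DKO and 9.04 to 9.53 in WT. The arrays were checked against markers of each region. The mean of 9 measured hippocampus markers ranged from 7.13 to 7.71 on amygdala arrays and from 8.16 to 8.5 on hippocampus arrays. By mean 8 of them were higher in the hippocampus, from Fibcd1 at 0.01 to Prox1 at 2.51, and Wfs1 was lower at −0.69. Every hippocampus array lay above every amygdala array for 5 of the 9. The mean of 8 markers of amygdala and cortex ranged from 8.33 to 8.74 on amygdala arrays and from 7.67 to 8.08 on hippocampus arrays. Of these, 7 were higher in the amygdala by mean, and Cdh9 was higher in the hippocampus by 0.18. The mean of 9 striatal markers was 8.70 to 9.54 in the amygdala and highest on the WT amygdala arrays up to 1 hr. The mean of 9 thalamic markers was 7.27 to 7.81 on WT and 7.78 to 8.26 on DKO hippocampus arrays, and 6.81 to 7.07 in the amygdala.

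Potassium channels let potassium leave or enter the cell along its gradient and thereby set the resting potential, end action potentials and space them. Voltage-gated Kv channels open on depolarization and work with cytoplasmic and membrane partners. Inward rectifiers (Kir) hold the membrane near rest and include the channels opened by G proteins, and tandem-pore channels (K2P) carry leak. Calcium- and sodium-activated channels give the hyperpolarization that follows spikes. In pyramidal neurons of the amygdala and hippocampus these currents limit how strongly synaptic input drives firing, and several of the channels are phosphorylated by the cAMP-dependent kinase that acts downstream of adenylyl cyclases.

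The regions differed in potassium channel genes more often than in the array as a whole. With limma on all 20 arrays, 37 of 93 transcript clusters (39.8%), which belong to 36 genes, differed between the regions at an adjusted p below 0.05, where 17.7% of all transcript clusters did. Of these, 22 were higher in the hippocampus (23.7%, against 8.95% of all transcript clusters) and 15 were higher in the amygdala (16.1%, against 8.78%). The median difference, hippocampus minus amygdala, was −0.02 on the log2 scale both over the 93 and over all transcript clusters, so that the differences ran in both directions. The share went with level. Among transcript clusters above the median level of 6.75, 31 of 57 potassium channel clusters (54.4%) differed and 26.5% of all, and among those at or below it 6 of 36 (16.7%) and 8.94%.

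For 13 of the 93 (14%, against 3.80% of all transcript clusters) every array of a region lay above every array of the other, 5 of them higher in the hippocampus and 8 higher in the amygdala. Of the 37 that passed, 21 differed the same way in all 10 pairs of arrays that share genotype and time, and all 37 had the same direction in the WT and in the DKO means. Agreement of the WT and DKO means is favoured by the test itself, which averages the differences of both genotypes. Only 7 reached 1.5-fold, namely Kcnj6, Kcnab2, Kcnj10, Kcng3, Kcnj16, Kcnf1 and Kcna5. Shares over all transcript clusters are not given here for the pairs, the means or the 1.5-fold limit, so these counts describe the members only. The 56 that did not pass lay between −0.20 for Kcnip1 and 0.18 for Kcng4.

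**Figure D1:**
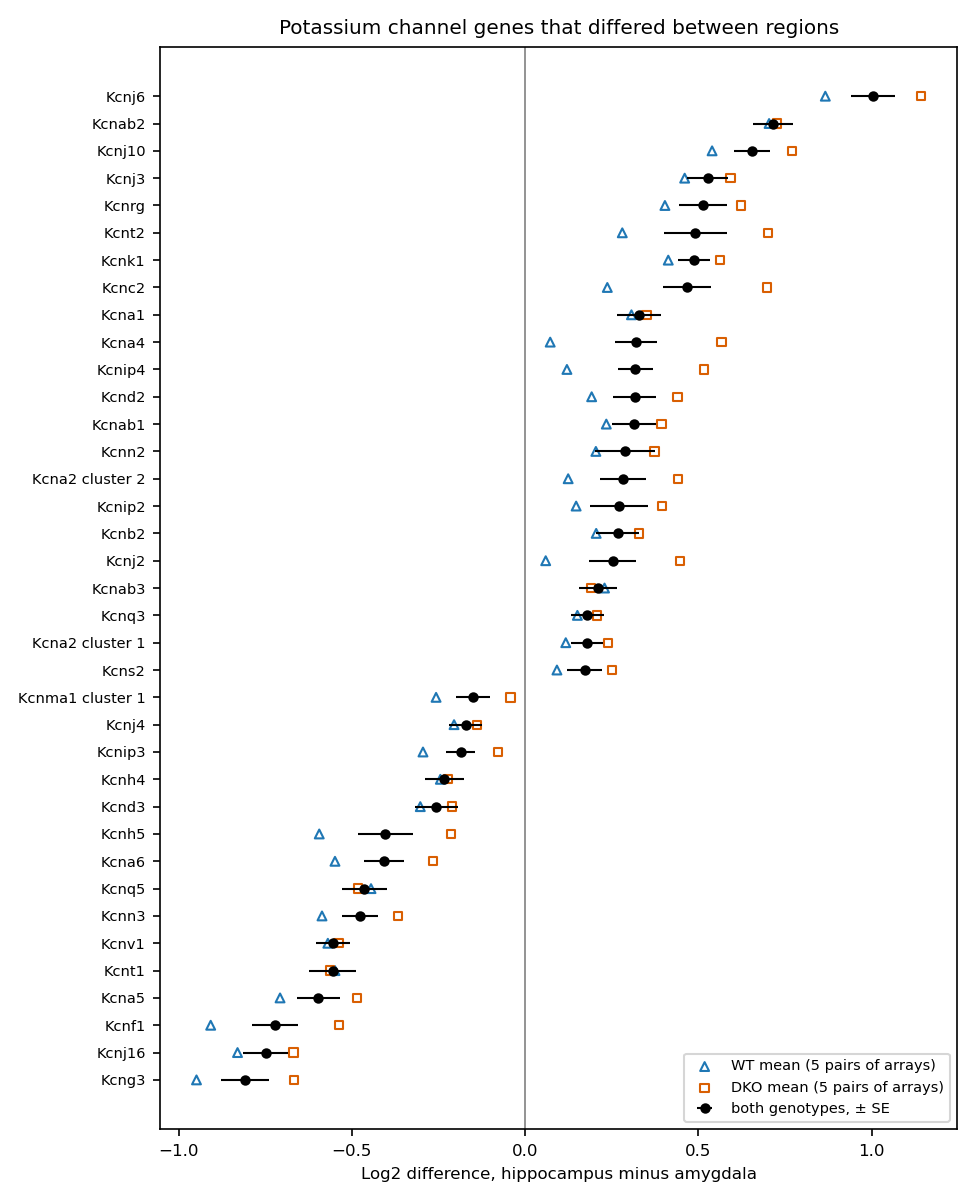
Log2 difference between the regions, hippocampus minus amygdala, for the 37 transcript clusters of potassium channel genes that passed the test. Black points give the limma estimate over 20 arrays with its SE, and open symbols the mean of 5 pairs of arrays in WT (triangles) and DKO mice (squares). Kcnj6 stands at 1.00 and Kcng3 at −0.81, and most members higher in the hippocampus have the DKO symbol on the right of the WT symbol.

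The largest difference in each direction belonged to a pore-forming subunit and to a silent subunit. Kcnj6 encodes GIRK2, a Kir subunit opened by G protein subunits downstream of inhibitory receptors. Its level was 6.57, 7.0 and 7.19 (lowest, median and highest of 10 arrays) in the amygdala and 7.75, 7.98 and 8.17 in the hippocampus. All hippocampus arrays lay above all amygdala arrays, and the difference was 1.00 (SE 0.063, limma, adjusted p = 1.32e-11), or 2.01-fold. Kcng3 encodes a Kv subunit that forms no channel alone and alters Kv2 channels. It ranged from 6.94 over a median of 7.37 to 7.73 in the amygdala and from 6.25 over 6.56 to 6.71 in the hippocampus, again with no overlap, and the difference was −0.81 (SE 0.070, adjusted p = 2.84e-09).

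To show the DNA at the start of these genes, RefSeq promoter windows of 250 bases before and 50 after an annotated start were read on assembly GRCm38.p6. They are given for Kcnj6 and Kcng3 and for Kcnj10 and Kcnf1, which have large differences in each direction and a single window. Windows run 5′ to 3′ on the strand of the gene. Capitals mark matches, on either strand, to the cAMP response element TGACGTCA, its half-site TGACG, which lies within the full element, the TATA box TATAAA and the GC box GGGCGG.
Kcnj6, first of 2 windows, chr16:94997647-94997946, minus strand: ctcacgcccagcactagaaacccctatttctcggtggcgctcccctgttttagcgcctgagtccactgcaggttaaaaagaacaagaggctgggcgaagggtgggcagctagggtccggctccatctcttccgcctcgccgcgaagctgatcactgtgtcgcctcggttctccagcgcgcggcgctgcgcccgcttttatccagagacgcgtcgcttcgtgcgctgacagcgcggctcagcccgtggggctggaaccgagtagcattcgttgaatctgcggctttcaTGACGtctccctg
Kcnj10, chr1:172340960-172341259, plus strand: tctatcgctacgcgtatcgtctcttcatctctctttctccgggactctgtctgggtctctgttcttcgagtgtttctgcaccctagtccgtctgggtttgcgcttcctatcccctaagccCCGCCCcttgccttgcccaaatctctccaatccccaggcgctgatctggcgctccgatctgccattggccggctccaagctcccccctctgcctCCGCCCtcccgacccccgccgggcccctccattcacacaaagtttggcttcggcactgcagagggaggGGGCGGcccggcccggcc
Kcng3, chr17:83631846-83632145, minus strand: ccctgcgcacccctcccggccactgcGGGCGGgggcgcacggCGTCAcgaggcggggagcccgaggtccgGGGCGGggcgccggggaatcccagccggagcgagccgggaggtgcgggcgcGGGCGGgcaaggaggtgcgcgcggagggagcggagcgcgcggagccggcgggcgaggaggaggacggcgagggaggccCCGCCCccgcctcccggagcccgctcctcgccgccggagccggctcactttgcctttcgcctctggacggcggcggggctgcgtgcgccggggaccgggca
Kcnf1, chr12:17176839-17177138, minus strand: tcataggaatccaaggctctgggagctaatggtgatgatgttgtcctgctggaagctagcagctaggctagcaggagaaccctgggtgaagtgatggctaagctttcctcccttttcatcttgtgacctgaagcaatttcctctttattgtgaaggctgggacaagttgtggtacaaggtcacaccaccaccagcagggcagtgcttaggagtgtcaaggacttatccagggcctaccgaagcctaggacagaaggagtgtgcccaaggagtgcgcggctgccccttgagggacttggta
The Kcnj6 window held 1 half-site, that of Kcnj10 held 3 GC boxes, that of Kcng3 a half-site and 4 GC boxes, and that of Kcnf1 none of these letters. Windows were found for 68 of the 90 genes, 92 windows in all. The full cAMP response element was in 0 of 92 and in 1.79% of all 32851 windows, and the half-site in 16.3% and 20.8%. TATAAA was in 4.35% of the windows of potassium channel genes and in 13.6% of all, and GGGCGG in 47.8% and 35.7%. Among windows of genes higher in the hippocampus 45.8% held a GC box, and among those higher in the amygdala 42.1%. A match describes the letters and is no evidence of binding.

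Inward rectifiers differed in both directions. Of 14 Kir transcript clusters, 4 were higher in the hippocampus and 2 in the amygdala (8.95% and 8.78% of all transcript clusters). The other 8 did not pass, and the median difference of the 14 was 0.00. Both GIRK subunits of the common neuronal channel stood together. Kcnj3, which encodes GIRK1, was at 8.25, 8.53 and 8.66 in the amygdala and at 8.86, 9.01 and 9.23 in the hippocampus, with no overlap and a difference of 0.53 (SE 0.059, adjusted p = 2.28e-07). Kcnj9, which encodes GIRK3, overlapped between the regions, with 7.16 to 7.44 in the amygdala and 7.08 to 7.34 in the hippocampus, and its difference of −0.07 did not pass (adjusted p = 0.292).

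The Kir subunits of glia and epithelia split. Kcnj10 encodes Kir4.1, the main potassium channel of astrocytes, which clears potassium after firing. It ranged from 8.29 over 8.49 to 8.66 in the amygdala and from 8.93 over 9.18 to 9.34 in the hippocampus, and every hippocampus array was higher. The difference was 0.65 (SE 0.052, adjusted p = 6.03e-10). Kcnj16 encodes Kir5.1, which forms channels together with Kir4.1, and went the other way with no overlap. Its levels were 7.81, 7.93 and 8.18 in the amygdala and 6.87, 7.20 and 7.47 in the hippocampus, a difference of −0.75 (SE 0.065, adjusted p = 3.27e-09). Of 6 astrocyte markers 4 were higher in the hippocampus by mean, with a median of 0.15, and their mean level was 8.49 to 8.81 in the amygdala and 8.89 to 9.07 in the hippocampus. Among them Gfap stood at 1.02, Aqp4 at 0.60 and Slc1a3 at −0.12. All 5 measured oligodendrocyte markers were higher in the hippocampus by mean, with a median of 0.36, as were all 6 vascular and mural markers, at 0.15. Of 5 microglia markers 4 were higher in the amygdala, with a median of −0.09. The part of astrocytes or of these other cells in the Kcnj10 and Kcnj16 differences was not tested.

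Kcnj2, a strong rectifier of neurons and vessels and a direct neighbour of Kcnj16 on chromosome 11, was higher in the hippocampus by 0.25 (SE 0.067, adjusted p = 0.00866). With WT arrays alone it was 0.06 (adjusted p = 0.842). Its amygdala arrays spread from 5.32 to 5.94 and overlapped with the hippocampus range of 5.53 to 6.14. Kcnj4 was higher in the amygdala, by −0.17 in hippocampus minus amygdala, and did not pass in either genotype alone (adjusted p = 0.109 in WT and 0.147 in DKO). Kcnj15, next to Kcnj6 on chromosome 16, and Kcnj1 were among those that did not pass, which ranged from −0.10 for Kcnj12 to 0.04 for Kcnj8.

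**Figure D2:**
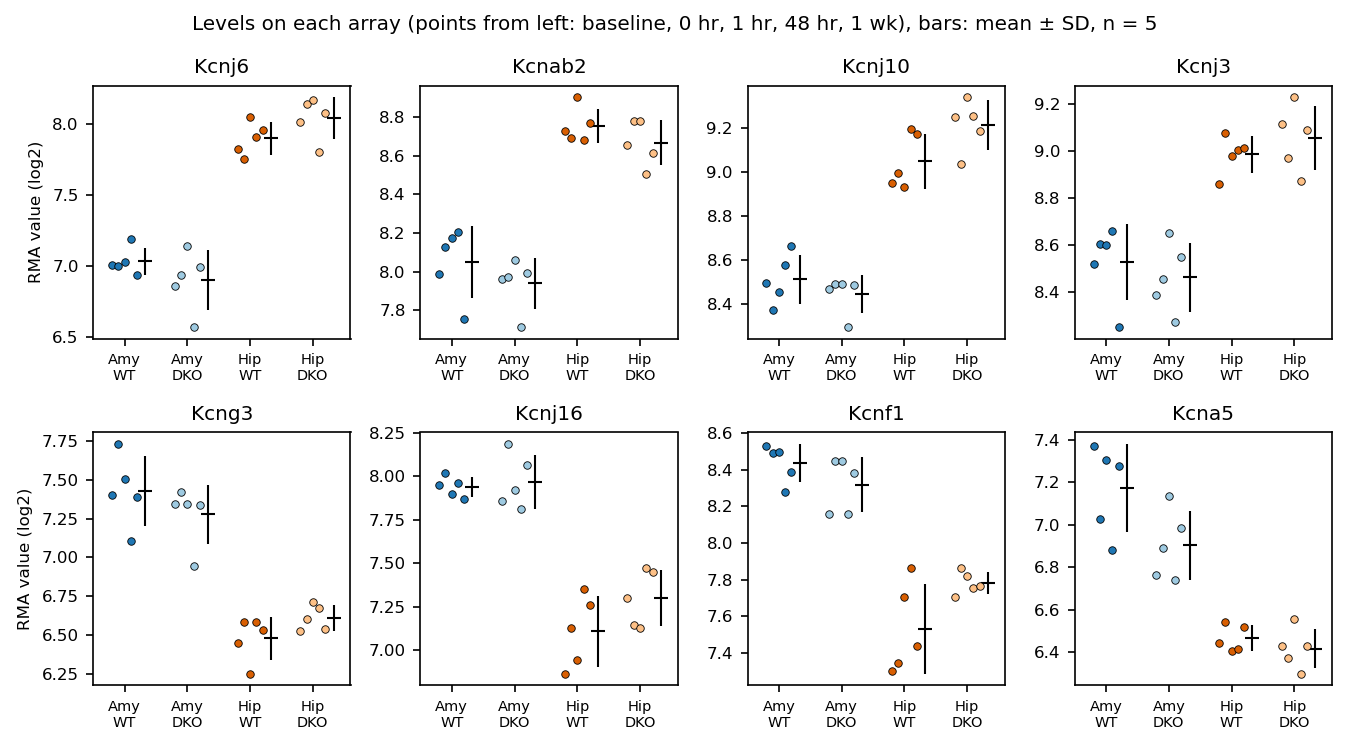
RMA value (log2, each panel on its own axis) of 8 potassium channel genes on all 20 arrays, grouped as amygdala (Amy) or hippocampus (Hip) and WT or DKO. Points are arrays in time order and bars the mean ± SD of 5 arrays. In the upper row the hippocampus points lie above all amygdala points, from 7.75 against at most 7.19 for Kcnj6, and in the lower row the order is turned.

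Shaker-type Kv1 channels open near threshold and sit on axons. Of 9 Kv1 transcript clusters 4 were higher in the hippocampus and 2 in the amygdala (8.95% and 8.78% of all transcript clusters). Kcna1 was at 7.47, 7.85 and 8.08 in the amygdala and at 8.05, 8.20 and 8.35 in the hippocampus. The ranges overlapped slightly, the hippocampus was higher in all 10 pairs, and the difference was 0.33 (SE 0.063, adjusted p = 0.000398). Kcna5 and Kcna6 flank Kcna1 on chromosome 6 in the RefSeq table, with 0 protein-coding genes between on either side, and both went the other way. Kcna5 did not overlap, with 6.74 to 7.37 in the amygdala and 6.30 to 6.56 in the hippocampus, a difference of −0.60 (SE 0.062, adjusted p = 6.32e-08). Kcna6 was lower in the hippocampus in 9 of 10 pairs, by −0.41 (SE 0.058, adjusted p = 8.40e-06).

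Both transcript clusters of Kcna2, a partner of Kcna1 in axonal channels, were higher in the hippocampus, at 0.18 (adjusted p = 0.00749) and 0.28 (adjusted p = 0.00280). With WT arrays alone neither passed, at 0.12 for both (adjusted p = 0.318 and 0.578). Kcna4, which gives fast inactivating current, was at 7.07, 7.46 and 7.70 in the amygdala and 7.61, 7.71 and 8.05 in the hippocampus. The regions overlapped, and the difference of 0.32 (SE 0.060, adjusted p = 0.000295) came with 0.07 in WT and 0.57 in DKO arrays. With WT arrays alone it did not pass (adjusted p = 0.727).

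Of 12 auxiliary genes of Kv channels 6 were higher in the hippocampus and 1 in the amygdala (8.95% and 8.78% of all transcript clusters). Their median difference was 0.10. The 6 were beta subunits, KChIP genes and Kcnrg, whereas the membrane partners Kcne1, Kcne1l, Kcne3 and Kcne4 did not pass and lay between −0.08 and −0.02. Kcnab2, a beta subunit of Kv1 channels, was at 7.71, 7.99 and 8.21 in the amygdala and 8.51, 8.71 and 8.90 in the hippocampus, with no overlap. Its difference was 0.72 (SE 0.059, adjusted p = 1.38e-09), and the values of 0.70 in WT and 0.73 in DKO were nearly the same. The other beta subunits followed with smaller values, 0.31 for Kcnab1 (adjusted p = 0.000676) and 0.21 for Kcnab3 (adjusted p = 0.00670). Kcnab1 did not pass with WT arrays alone (adjusted p = 0.190). Kcnab3 did not pass in either genotype alone or without the WT amygdala arrays up to 1 hr (adjusted p = 0.0572). Kcnrg, a protein that hinders the assembly of Kv channels, was higher in the hippocampus in all 10 pairs, by 0.51 (SE 0.069, adjusted p = 3.48e-06).

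Kv4 channels carry the A-type current of dendrites and are bound by the KChIP proteins, the products of Kcnip1 to Kcnip4. Kcnd2, the main Kv4 gene of hippocampal pyramidal cells, was at 9.40, 9.75 and 9.98 in the amygdala and 9.81, 10.06 and 10.22 in the hippocampus. It overlapped, was higher in the hippocampus in 9 of 10 pairs, and differed by 0.32 (SE 0.062, adjusted p = 0.000504). Kcnd3, its close relative, was higher in the amygdala in 9 of 10 pairs, by −0.26 (SE 0.062, adjusted p = 0.00381). Among the KChIP genes, Kcnip4 differed by 0.32 (SE 0.049, adjusted p = 2.83e-05) and Kcnip2 by 0.27 (SE 0.084, adjusted p = 0.0252), both higher in the hippocampus. With WT arrays alone neither passed, at 0.12 for Kcnip4 (adjusted p = 0.434) and 0.15 for Kcnip2 (adjusted p = 0.568). Kcnip3, whose product also acts as a repressor of transcription, was higher in the amygdala, at −0.19 (SE 0.042, adjusted p = 0.00185), and at −0.08 with DKO arrays alone (adjusted p = 0.431). Kcnip1 had a difference of −0.20 (adjusted p = 0.0840) and did not pass, but passed with array weights (adjusted p = 0.0169), without both DKO 48 hr arrays (adjusted p = 0.0351), and without the 48 hr array of DKO amygdala (0.0294) or of WT amygdala (0.0446). The Kcnip2 call was lost in 4 of 20 fits that left out 1 array, with adjusted p-values up to 0.0573, and with array weights (adjusted p = 0.0527).

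Of 11 transcript clusters of Kv2 channels and silent subunits 3 were higher in the amygdala and 2 in the hippocampus. Kcng3, Kcnf1 and Kcnv1, all of which encode subunits that change Kv2 channels without forming channels of their own, were higher in the amygdala with no overlap. Kcnf1 was at 8.16, 8.42 and 8.53 in the amygdala and 7.30, 7.73 and 7.87 in the hippocampus. The difference was −0.72 (SE 0.065, adjusted p = 6.48e-09), with −0.91 in WT and −0.54 in DKO. Kcnv1 was lower in the hippocampus by −0.55 (SE 0.048, adjusted p = 3.50e-09), with 8.39 to 8.74 in the amygdala against 7.87 to 8.17. Kcnb2, which encodes a Kv2 pore, was higher in the hippocampus, at 0.27 (SE 0.063, adjusted p = 0.00307), as was the silent subunit Kcns2 at 0.17 (adjusted p = 0.0166). With WT arrays alone neither passed, at 0.20 for Kcnb2 (adjusted p = 0.132) and 0.09 for Kcns2 (adjusted p = 0.584). The other 6 of 11 ranged from −0.10 for Kcng2 to 0.18 for Kcng4.

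Fast delayed rectifiers of the Kv3 type let interneurons fire at high rates. Kcnc2 was at 7.49, 8.0 and 8.21 in the amygdala and 8.18, 8.38 and 8.78 in the hippocampus. The hippocampus was higher in all 10 pairs, and the difference was 0.47 (SE 0.069, adjusted p = 1.30e-05), with 0.24 in WT and 0.70 in DKO. It did not pass with WT arrays alone (adjusted p = 0.0890). Kcnc1 differed by 0.09 (adjusted p = 0.280) and Kcnc4 by 0.02. The 6 markers Pvalb, Gad1, Gad2, Slc32a1, Lhx6 and Erbb4 cover GABA neurons more widely than fast-spiking interneurons. Their mean was 8.70 to 9.01 in the amygdala and 8.40 to 8.70 in the hippocampus. Of these, 5 were lower in the hippocampus, such as Gad2 at −0.79, and Pvalb was higher there by 0.87. The part of these cells in the Kcnc2 difference was not tested.

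Kv7 channels carry the M current that acetylcholine suppresses. Kcnq3 was higher in the hippocampus in all 10 pairs by 0.18 (SE 0.048, adjusted p = 0.00880), and Kcnq5 was higher in the amygdala. Kcnq5 did not overlap, with 8.54, 8.79 and 9.09 in the amygdala and 8.09, 8.39 and 8.48 in the hippocampus, and differed by −0.46 (SE 0.065, adjusted p = 7.23e-06). In the EAG, ERG and ELK group of 8 transcript clusters none was higher in the hippocampus and 2 were higher in the amygdala. Over all transcript clusters the shares were 8.95% and 8.78%, so that none of 8 is near the share over all. Kcnh5 differed by −0.40 (SE 0.079, adjusted p = 0.000520) and Kcnh4 by −0.23 (adjusted p = 0.00447). With DKO arrays alone Kcnh5 was at −0.21 (adjusted p = 0.0830), and Kcnh4 did not pass in either genotype alone (adjusted p = 0.0909 in WT and 0.0568 in DKO). Kcnh7, an ERG channel gene, differed by 0.02 (adjusted p = 0.906), and this sign turned in 4 of 20 fits that left out 1 array.

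Of 13 transcript clusters of channels gated by calcium or sodium, 2 were higher in the hippocampus and 3 in the amygdala (8.95% and 8.78% of all transcript clusters). The SK channel genes, whose products give the medium afterhyperpolarization, went in opposite directions. Kcnn2 was higher in the hippocampus by 0.29 (SE 0.087, adjusted p = 0.0202), with ranges of 7.39 to 8.15 and 7.95 to 8.52 that overlapped. Kcnn3 was higher in the amygdala without overlap, at 8.0, 8.17 and 8.51 against 7.58, 7.80 and 7.87, by −0.48 (SE 0.052, adjusted p = 1.80e-07). The sodium-activated pair did the same. Kcnt2 was higher in the hippocampus by 0.49 (SE 0.090, adjusted p = 0.000238), in 9 of 10 pairs. Kcnt1 was higher in the amygdala with no overlap, 6.56 to 7.26 against 6.15 to 6.54, by −0.56 (SE 0.069, adjusted p = 1.20e-06).

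The BK channel gene Kcnma1 gave different calls from its 2 transcript clusters. The first, at 8.92 to 9.39 in the amygdala and 8.96 to 9.17 in the hippocampus, differed by −0.15 (SE 0.049, adjusted p = 0.0356). The call was lost in 9 of 20 fits that left out 1 array, with genotype and time as a block (adjusted p = 0.0973), with median centring (0.0834), without the WT amygdala arrays up to 1 hr (0.148) and with DKO arrays alone, where it was −0.04 (0.722). The second lay between 3.93 and 4.62 on all arrays and did not pass (−0.07, adjusted p = 0.540).

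Of 14 transcript clusters of K2P leak channels 1 passed, while 17.7% of all transcript clusters did. Kcnk1, which encodes the weak inward rectifier TWIK1 of neurons and astrocytes, was at 8.13, 8.44 and 8.57 in the amygdala and 8.78, 8.91 and 9.01 in the hippocampus, with no overlap and a difference of 0.49 (SE 0.047, adjusted p = 1.85e-08). The other 13 ranged from −0.19 for Kcnk9, which encodes the acid-sensitive TASK3 (adjusted p = 0.0865), to 0.11 for Kcnk10. Kcnk2, the mechanosensitive TREK1, was at 0.08 (adjusted p = 0.456). For Kcnk9 the WT and DKO values were −0.34 and −0.04, and it passed after further quantile normalization (adjusted p = 0.0367) and without the 48 hr array of DKO amygdala (0.0368) or of WT amygdala (0.0302).

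**Figure D3:**
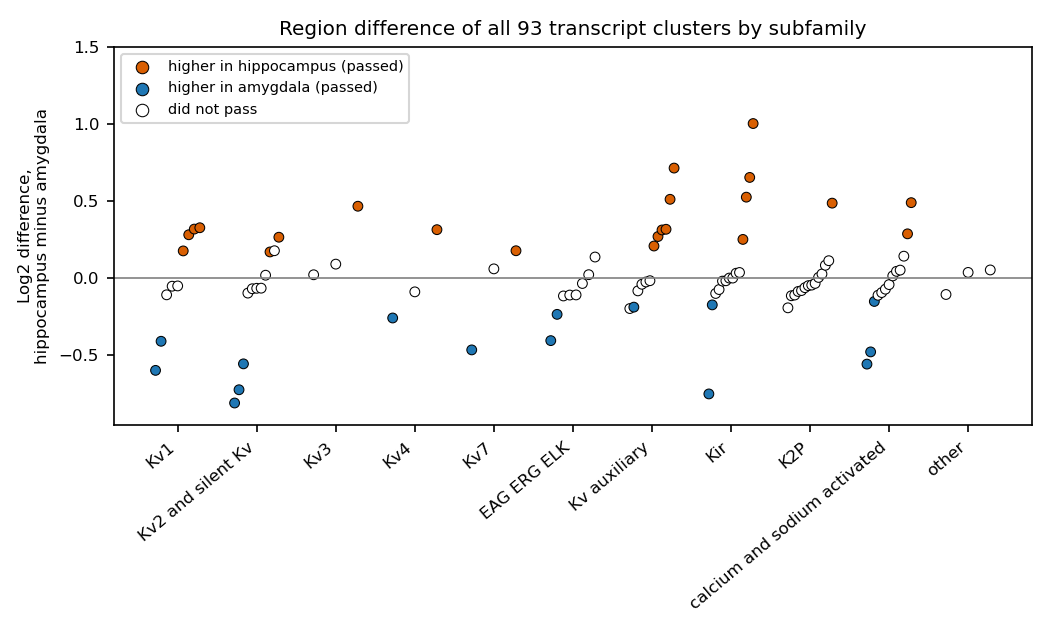
Log2 difference between the regions for all 93 transcript clusters, sorted by size within each subfamily. Orange points passed with a higher level in the hippocampus, blue points passed with a higher level in the amygdala, and white points did not pass. Kv partners have 6 orange and 1 blue of 12 points, the EAG, ERG and ELK group has 2 blue and 0 orange of 8, and K2P has a single coloured point. Over all transcript clusters 8.95% passed with a higher level in the hippocampus and 8.78% with a higher level in the amygdala.

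Some close relatives lay on opposite sides. Kcnj10 and Kcnj16, Kcnt2 and Kcnt1, Kcnn2 and Kcnn3, Kcnq3 and Kcnq5, Kcnd2 and Kcnd3, and Kcna1 with Kcna5 and Kcna6 each had 1 member higher in the hippocampus and 1 or 2 higher in the amygdala. These sets were picked after their values were seen. Other relatives passed on the same side, such as Kcnj3 with Kcnj6, the genes Kcnab1, Kcnab2 and Kcnab3, Kcnip2 with Kcnip4, and Kcng3 with Kcnf1 and Kcnv1. All genes of the opposite sets passed over 20 arrays, but with WT arrays alone Kcnt2 (adjusted p = 0.127), Kcnn2 (0.294), Kcnq3 (0.177) and Kcnd2 (0.234) did not, and with DKO arrays alone Kcnq3 (0.0664) and Kcnd3 (0.114) did not.

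**Figure D4:**
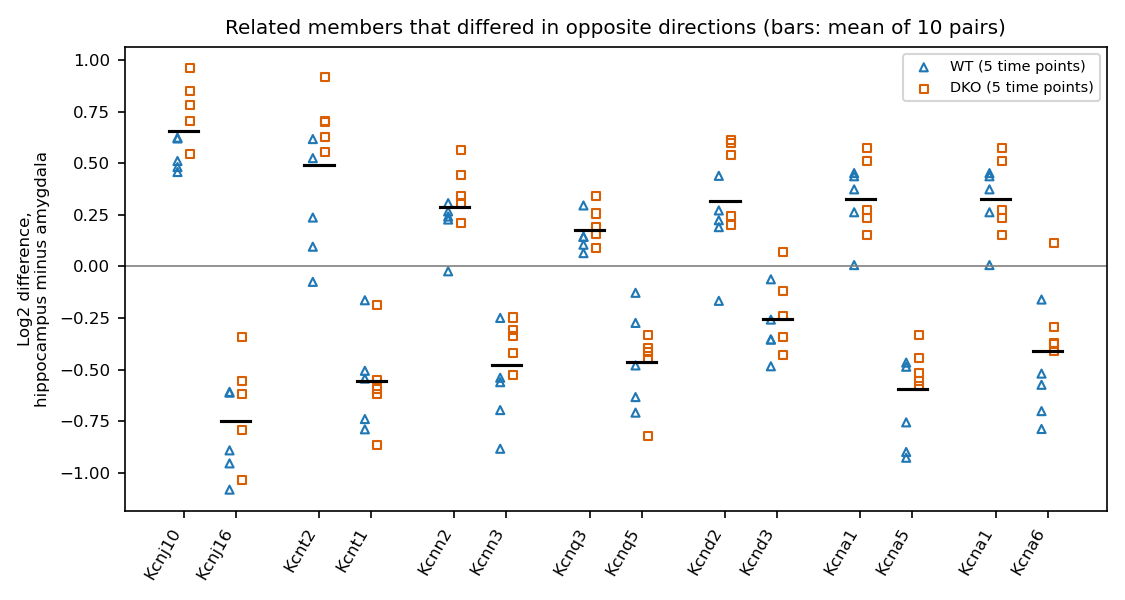
Log2 difference between the regions in each of 10 pairs of arrays of the same genotype and time, for related potassium channel genes with opposite directions (Kcna1 is shown beside each neighbour). Triangles are WT pairs, squares DKO pairs and bars the mean. All 10 pairs are above 0 for Kcnj10 and below 0 for Kcnj16, whereas Kcnd2 and Kcnd3 each have 1 pair on the other side.

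The mean region differences of the 2 genotypes were set side by side. Of the 22 members higher in the hippocampus, 21 had a larger difference in DKO than in WT arrays, with medians of 0.44 and 0.22, and among all transcript clusters higher there 84.2% did. Of the 15 higher in the amygdala, 13 were further apart in WT, with medians of −0.55 in WT and −0.37 in DKO. The other 2 (13.3%) were further apart in DKO, as were 37.5% of all transcript clusters higher there. With WT arrays alone 20 members passed (background 8.58%), 7 higher in the hippocampus and 13 in the amygdala, and with DKO arrays alone 33 (background 19.0%), 22 and 11. Of the 37 calls, 17 were lost with WT arrays alone and 8 with DKO arrays alone, and 4 were lost in both, those of Kcnab3, Kcnh4, Kcnj4 and Kcnq3. Markers of other regions also differed. The thalamic mean was higher in DKO than in WT hippocampus from baseline to 48 hr, but not at 1 wk (7.79 against 7.81). The striatal mean was highest on the early WT amygdala arrays. The part of either was not tested. Without the WT amygdala arrays up to 1 hr 42 members passed, 22 higher in the hippocampus and 20 in the amygdala. The share of all transcript clusters in that fit is not given here, so this count cannot be read as particular to the members.

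Whether the genotype effect differed between regions was tested directly. It passed for 0 of 93 members at an adjusted p of 0.05 with limma, where 0.0104% of all transcript clusters passed. At an unadjusted p of 0.05, 16 members were positive and 6 negative, against 8.91% and 8.5% of all. The smallest p-values belonged to Kcna4 at 0.49 (SE 0.120), Kcnip4 at 0.40 (SE 0.099) and Kcnc2 at 0.46 (SE 0.137), each with an adjusted p of 0.241. In DKO minus WT, Kcna4 was −0.48, −0.30, −0.43, −0.57 and 0.22 from baseline to 1 wk in the amygdala and 0.37, 0.10, 0.11, 0.14 and 0.21 in the hippocampus. It was lower in DKO mice at 4 of 5 times in the amygdala and higher at 5 of 5 in the hippocampus.

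Partners of these channels that carry no Kcn symbol were read beside them. Of 17 transcript clusters, 5 were higher in the hippocampus and 3 in the amygdala (8.95% and 8.78% of all transcript clusters), with a median of 0.03. Dpp10, a membrane partner of Kv4 channels, was higher in the amygdala by −1.82 (SE 0.082, adjusted p = 5.95e-14), more than any Kcn gene, and its relative Dpp6 was higher in the hippocampus by 0.23 on 1 of 2 transcript clusters (adjusted p = 0.00462). Abcc8, the sulphonylurea receptor of KATP channels, stood at 0.47, Lgi1, which binds at Kv1 complexes, at 0.40, and Lrrc55, an auxiliary BK subunit, at 0.54. Ank3 at 0.20 was also higher in the hippocampus. Cntnap2 at −0.35 and Adam22 at −0.15, both found with Kv1 channels on axons, were higher in the amygdala. None of the 17 passed in the tests of genotype or time.

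The genotype comparison asked which genes differ in DKO mice across all times. None of the 93 passed in the amygdala (background 0.097% of all transcript clusters) or in the hippocampus (0.118%) with limma at an adjusted p of 0.1, and 0 with the methods' t-test after adjustment. At an unadjusted p of 0.05, 15 members stood out in the amygdala, 1 higher and 14 lower in DKO, against 2.10% (higher) and 4.72% (lower) of all transcript clusters. Hippocampus arrays gave 15, 8 higher and 7 lower, against 3.75% and 7.67%. The striatal marker mean was also lower in DKO than in WT amygdala from baseline to 48 hr, but not at 1 wk (8.91 against 8.82). It ranged from 8.70 to 8.91 in DKO and from 8.82 to 9.54 in WT, and its part in the lower values was not tested.

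In the hippocampus the smallest p belonged to Kcnj1, the renal potassium channel ROMK, at a low level. It was 5.66, 5.33, 5.25, 5.51 and 5.40 from baseline to 1 wk in WT and 5.12, 5.07, 5.08, 5.05 and 5.01 in DKO. All WT arrays were above all DKO arrays, and the difference was −0.36 (SE 0.073, adjusted p = 0.131). It passed with array weights (adjusted p = 0.0807) and without the WT hippocampus array of 1 hr (adjusted p = 0.0408). Kcnip4 was higher in DKO at 5 of 5 times by 0.21 (adjusted p = 0.323), and Kcnj15 was at −0.21 (adjusted p = 0.335).

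In the amygdala the smallest p-values belonged to Kcnh7 at −0.33 (SE 0.1), Kcnj2 at −0.29 (SE 0.091) and Kcna4 at −0.31 (SE 0.098), each with an adjusted p of 0.646. Kcnh7 in WT was 8.21, 8.18, 8.38, 8.14 and 7.92 from baseline to 1 wk and in DKO 7.81, 7.99, 7.92, 7.53 and 7.91. The DKO array was lower at every time, by 0.01 at 1 wk, and only the WT array of 1 wk lay within the DKO range. Kcnj2 was also lower in DKO at 5 of 5 times.

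Changes after CF training were compared with baseline over the 4 groups of region and genotype. At an adjusted p of 0.05, 0 of 93 members passed at 0 hr (background 0.00347%), 1 hr (0.0243%), 48 hr (0.0%) or 1 wk (0.00347%), and 2, 2, 4 and 3 were under an unadjusted p of 0.05 (2.58%, 6.16%, 3.59% and 3.12% of all transcript clusters). Kcnip2, which encodes KChIP2, had the smallest p at 0 hr and 1 hr. At baseline it was 8.23 in WT amygdala, 7.86 in DKO amygdala, 8.22 in WT hippocampus and 8.26 in DKO hippocampus, and at 1 hr 8.51, 8.31, 8.75 and 8.82. All 4 groups were higher at 1 hr, by 0.28, 0.45, 0.54 and 0.57, with a mean of 0.46 (SE 0.088, adjusted p = 0.117). It passed with array weights (adjusted p = 0.0135), and adjusted p-values ranged from 0.0509 to 0.655 when 1 array was left out. At 0 hr all 4 groups were higher by a mean of 0.22, and at 48 hr 2 were higher and 2 lower.

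Other members with the smallest p at a time were Kcnj2 at −0.23 and Kcne1l at 0.15 (0 hr), Kcnk4 at −0.20 and Kcnn2 at 0.27 (1 hr), Kcna10 at −0.30, Kcnd3 at −0.22 and Kcnj2 at −0.23 (48 hr), and Kcnd3os at 0.21, Kcnab3 at 0.17 and Kcng4 at 0.26 (1 wk). Their adjusted p-values were 0.809 or above.

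**Figure D5:**
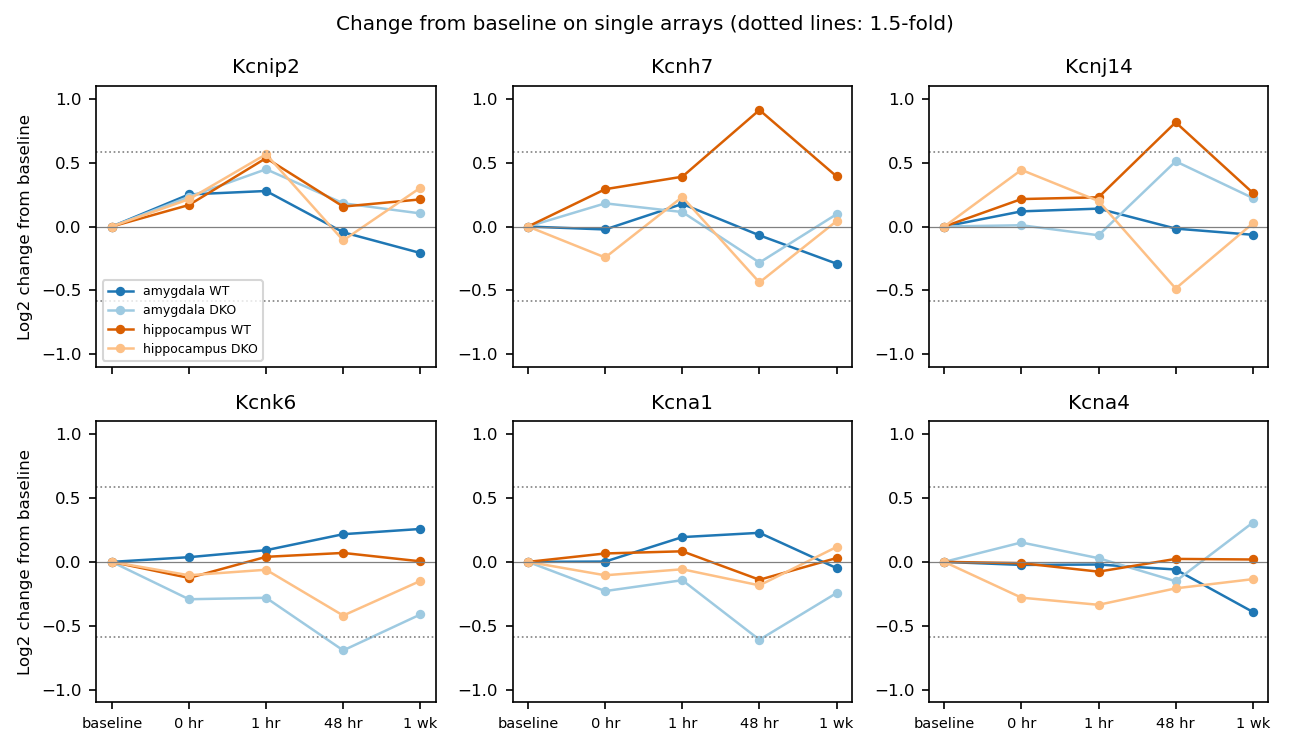
Change from the baseline array (log2) of 6 potassium channel genes at each time in the 4 groups of region and genotype, 1 array per point, with dotted lines at 1.5-fold. Kcnip2 is above 0 in all 4 groups at 0 hr and 1 hr, Kcnh7 and Kcnj14 peak at 0.91 and 0.82 on the WT hippocampus array of 48 hr, and Kcnk6 and Kcna1 drop below the lower line on the DKO amygdala array of 48 hr.

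Whether the change from baseline differed between genotypes was tested with the regions as replicates. None of 93 passed at any time, as did 0.0% of all transcript clusters. At 48 hr 19 members were lower in DKO minus WT at an unadjusted p of 0.05 and 0 higher, against 12.6% of all transcript clusters lower, and the medians were −0.20 over the members and −0.15 over all. Both DKO arrays of 48 hr had the lowest mean values of all arrays, 6.78 and 6.80. After a further quantile normalization 4 members were lower and 2 higher, and the shares of all transcript clusters after it are not given here. The part of the array means in these counts was not tested. Kcnk6, a leak channel gene, had the smallest p with a difference of −0.70 (SE 0.134, adjusted p = 0.324). It was 7.26 at baseline and 6.56 at 48 hr in DKO amygdala, 7.07 and 6.65 in DKO hippocampus, 6.82 and 7.04 in WT amygdala, and 7.0 and 7.07 in WT hippocampus, so that both DKO values were below and both WT values above baseline. Kcnn2 followed at −0.69 and Kcnk15 at −0.47.

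At 1 wk 18 members were lower and 3 higher at an unadjusted p of 0.05, against 13.5% and 4.35% of all. Kcne3, a membrane partner of Kv channels at low level, was at −0.59 (SE 0.143, adjusted p = 0.167), Kcne1 at −0.52 and Kcnj15 at −0.45, both with an adjusted p of 0.177. At 0 hr the smallest p-values belonged to Kcne3 at −0.46, the second transcript cluster of Kcnma1 at −0.47 and Kcnk3 at −0.50, and at 1 hr to Kcns1 at 0.36, Kcne1l at 0.32 and Kcne1 at −0.30, with adjusted p-values of 0.923 or above.

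On single arrays, 93 members were compared with baseline in each of 16 comparisons, and 6 of these changes reached 1.5-fold. This is a smaller share than the 1.15% of changes over all transcript clusters. The 6 changes have no replicate and no test. In WT hippocampus at 48 hr Kcnh7 went from 7.78 to 8.69 and Kcnj14, a Kir channel gene, from 6.22 to 7.04 (1.24% of all transcript clusters on that array). In DKO amygdala at 48 hr Kcnk6 went from 7.26 to 6.56 and Kcna1 from 8.08 to 7.47 (1.42%). The remaining changes were in WT amygdala, Kcnmb4os2 from 5.57 to 6.17 at 0 hr (0.912%) and Kcnk5 from 5.16 to 5.75 at 1 wk (4.10%). For Kcnh7 and Kcnj14 the DKO hippocampus array of 48 hr lay below its baseline, by −0.44 for Kcnh7. In the other comparisons with baseline no member reached 1.5-fold. In WT amygdala 0.579% of all transcript clusters did at 1 hr and 3.32% at 48 hr, and in DKO amygdala 0.825%, 0.575% and 1.27% at 0 hr, 1 hr and 1 wk. In WT hippocampus 0.319%, 1.11% and 0.627% did at 0 hr, 1 hr and 1 wk, and in DKO hippocampus 0.246%, 0.395%, 0.6% and 0.932% from 0 hr to 1 wk.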

How the data were processed

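The 20 arrays (Affymetrix Mouse Gene 1.0 ST) held RNA of amygdala or hippocampus micropunches. The authors ran RMA, which corrects, normalizes and summarizes probes, in Expression Console (version not given in the sources used here) and deposited log2 values. The build of the array annotation is not given in the sources used here, and coordinates are those of RefSeq promoter windows on GRCm38.p6. All 20 value columns were used and no filter was applied.

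Groups were region by genotype, with time points as replicates, as in the methods. Models were fitted with limma 3.58.1 (lmFit, eBayes) in R 4.3.3 on all 28853 transcript clusters with Benjamini-Hochberg adjustment, at 0.1 for genotype, the false discovery rate of the methods, and 0.05 otherwise. The contrasts were region, genotype within a region, their interaction, change from baseline with the 4 groups as a block, and its difference between genotypes. The scripts were tested on simulated data. The members, the subfamily, partner and marker lists and the tests were chosen with earlier results of these data known. Genes named were the 10 largest differences in each direction between regions, members called or with the 3 smallest p in the other tests, single-array changes of 1.5-fold, genes whose transcript clusters differ in call, and a list set by function. The region values of Kcnab3, Kcnb2, Kcnh4, Kcnj2, Kcnj4 and Kcns2 complete those of the called members. The highest and lowest uncalled members of a subfamily were named after their values were seen. Number of arrays limits the precision. Alternatives were a level filter, quantile normalization, median centring, a variance trend, array weights, other limits, blocks, subsets of arrays, the methods' t-test and each array left out. Counts and plots used Python 3.11.15, numpy 2.4.6, pandas 2.3.3 and matplotlib 3.10.9.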

Additional observations from a re-analysis of the deposited data

Results flagged for a closer look

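In each group of 5 arrays, the highest or lowest array was compared with its nearest neighbour, as a share of the range of the group. The genes were those with the largest region differences, the smallest p in the other tests or a single-array change of 1.5-fold. In their 176 groups, 12 values had a gap above 0.71 of the range. Chance alone gives about 1 group in 20 where genes are picked without regard to their values. These genes were picked by their values and share the same arrays, so the count cannot be set against that rate. Of the 12 values, 5 were from DKO amygdala or hippocampus at 48 hr. In DKO amygdala at 48 hr Kcnab2 was 7.71 (nearest other array 7.96), Kcng3 was 6.94 (7.34), Kcnj10 was 8.29 (8.47) and Kcnn2 was 7.39 (7.92), all the lowest of their group. In DKO hippocampus at 48 hr Kcnk5 was 5.28 (5.41). These arrays also had the lowest mean over all transcript clusters, 6.78 and 6.80, and the part of that in the 5 values was not tested. In DKO amygdala Kcnh5 was 8.36 (8.04) and Kcnj1 was 5.47 (5.21) at 1 wk, and Kcne1l was 7.20 (7.33) at baseline. In WT amygdala Kcna4 was 7.31 at 1 wk (7.64), the array with the higher DKO value in the genotype comparison, and Kcne1l was 7.54 at 0 hr (7.35). In WT hippocampus Kcna6 was 7.24 at 48 hr (7.08) and Kcnn3 was 7.58 at baseline (7.79).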

How the results depend on the processing

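The count of members that differed between regions was 37 and lay between 35 and 39 when 1 array was left out, and between 31 and 42 under the other settings apart from WT arrays alone (20) and a limit of 1.5-fold (7). The fit above the median level held 57 members and not 93. Shares of all transcript clusters are given above for WT and for DKO arrays alone. They are not given for the other alternatives, so these counts describe the members only. With genotype and time as a replicate block 36 passed, all of them among the 37, and a block changed no other count. For genotype in the hippocampus array weights gave 1 member (Kcnj1), and leaving out 1 array gave 0 to 1, with 1 without the WT array of 1 hr. Array weights gave 1 member at 1 hr (Kcnip2). For the genotype difference in the change at 1 wk, leaving out 1 array gave 0 to 2, with Kcnj15 and Kcnt2 passing without the WT hippocampus baseline array. Of the single-array changes 3 were above the median level. Signs turned for Kcnk2 in WT arrays alone (−0.0207), Kcnj9 in DKO arrays alone (0.0041) and the second Kcnma1 transcript cluster without the WT amygdala arrays up to 1 hr (0.0028), none of which passed in any of these fits. The region value of Kcnh7 lay between −0.0405 and 0.0736 when 1 array was left out. The settings without early WT amygdala arrays, without both DKO 48 hr arrays, and those for the genotype difference in the change were chosen after seeing the data. The causes were not tested.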
